A study of Mus musculus with 2 samples.

Results

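Expression of 10 genes of immunoreceptor tyrosine-based activation motif (ITAM) co-stimulation and Fc receptor signalling was examined by scRNA-Seq in murine bone marrow-derived monocytes (BMDMs) during osteoclast (OC) induction. The genes were chosen by symbol from the 32544 genes listed for both libraries: Tyrobp, Fcer1g, Trem2, Syk, Plcg2, Btk, Fcgr1, Fcgr2b, Fcgr3 and Fcgr4. All 10 were found in each library. The study asked how loss of Arid1a, which encodes a component of the BAF chromatin remodeler, alters the early response to RANKL. One library came from the control genotype and the other from LysM-Cre;Arid1afl/fl, called the mutant library from here on. In these animals Cre is driven from the Lyz2 locus, which is active in myeloid cells, and removes floxed exons 5 to 6 of Arid1a. The marrow donors were 4 to 6 weeks old per the study's methods, and cells of both genotypes were given M-CSF at 50 ng/ml with RANKL at 100 ng/ml and were collected 24 h after RANKL. The labels describe the control genotype no further, and whether animals were pooled is not given in the sources used here. Each genotype is 1 library, so no difference between them has a replicate check and no test was possible.

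ITAM signalling is the co-stimulatory arm of OC differentiation. Tyrobp (DAP12) and Fcer1g (FcR gamma chain) encode small transmembrane adaptors whose cytoplasmic tails carry the ITAM and which pair with ligand-binding receptors that have no signalling tail of their own, such as Trem2 and Oscar. When the motif is phosphorylated by Src family kinases, the kinase Syk docks on it and, with the Tec family kinase Btk, activates the phospholipase Plcg2, which raises cytosolic calcium and so leads to activation of Nfatc1, the master transcription factor of OCs. The Fc gamma receptors bind the constant part of IgG. Fcgr1, Fcgr3 and Fcgr4 encode activating receptors that pair with the FcR gamma chain, whereas Fcgr2b encodes the inhibitory receptor, whose tail carries an inhibitory motif (ITIM).

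The promoters of the 4 Fc gamma receptor genes are shown because these genes had the largest differences among the members and differed from each other in how their levels varied with interferon-stimulated genes. Sequences are from RefSeq (GRCm38.p6 table), each matched exactly and once by sequence to GRCm39, and run from 250 bases before to 50 bases after the annotated start in the direction of the gene. Capitals mark matches, on either strand, to an ISRE-type motif (GAAANNGAAA), a GAS-type motif (TTCNNNGAA) or a PU-box core (GAGGAA). These are letter patterns of elements that bind IRF and STAT factors and PU.1.
Fcgr1, chr3:96201236-96201535, minus strand: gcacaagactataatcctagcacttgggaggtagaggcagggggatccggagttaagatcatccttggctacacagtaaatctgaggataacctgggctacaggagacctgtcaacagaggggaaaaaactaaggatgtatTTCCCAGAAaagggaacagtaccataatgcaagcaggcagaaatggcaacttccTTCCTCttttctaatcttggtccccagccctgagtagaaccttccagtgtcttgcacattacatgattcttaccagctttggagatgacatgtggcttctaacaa
Fcgr4, chr1:170846245-170846544, plus strand: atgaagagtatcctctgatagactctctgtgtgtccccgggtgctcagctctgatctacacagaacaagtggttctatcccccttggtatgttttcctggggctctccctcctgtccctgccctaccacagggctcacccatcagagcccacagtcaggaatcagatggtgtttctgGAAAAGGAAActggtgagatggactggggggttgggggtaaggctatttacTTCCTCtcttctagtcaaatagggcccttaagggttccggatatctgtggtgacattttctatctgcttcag
Fcgr3, chr1:170886914-170887213, minus strand: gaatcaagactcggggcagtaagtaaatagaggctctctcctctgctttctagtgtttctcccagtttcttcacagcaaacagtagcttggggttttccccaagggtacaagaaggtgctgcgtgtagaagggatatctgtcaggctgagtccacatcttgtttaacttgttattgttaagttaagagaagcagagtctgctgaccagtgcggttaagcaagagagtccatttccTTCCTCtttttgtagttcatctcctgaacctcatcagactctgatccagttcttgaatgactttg
Fcgr2b, chr1:170803591-170803890, minus strand: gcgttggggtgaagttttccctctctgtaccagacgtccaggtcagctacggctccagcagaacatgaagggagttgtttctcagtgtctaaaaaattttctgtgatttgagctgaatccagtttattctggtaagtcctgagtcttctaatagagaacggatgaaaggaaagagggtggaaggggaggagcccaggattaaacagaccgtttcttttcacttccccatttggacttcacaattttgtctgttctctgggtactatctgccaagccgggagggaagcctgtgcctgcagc
In the Fcgr1 promoter the GAS-type match TTCCCAGAA lay from -109 to -101 relative to the start. In the Fcgr4 promoter the ISRE-type match GAAAAGGAAA lay from -73 to -64. A PU-box core was present in the promoters of Fcgr1, Fcgr4 and Fcgr3, as well as in those of Trem2, Btk and 1 of 2 Syk promoters. For Fcgr3, which has 2 windows that overlap almost wholly, 1 is shown. None of the 3 patterns was found in the Fcgr2b promoter window shown, nor in those of Fcer1g and Plcg2. Of all 32851 promoters of this length, 3.44% held the ISRE-type, 8.30% the GAS-type and 28.3% the PU-box pattern. A match is a run of letters and no evidence of binding.

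Cells were kept with at least 500 genes and at most 10% mitochondrial UMIs, which gave 6269 control and 5663 mutant cells with medians of 23978 and 21734 unique molecular identifiers (UMIs) per cell. Levels are UMIs summed over cells and scaled to counts per 1e6 UMIs (CPM), and ranges in parentheses are 95% intervals that cover only counting error. The targeted gene Arid1a was at 51.9 CPM in control and 20.4 CPM in mutant cells, with a log2 ratio of -1.35 (-1.41 to -1.28). The counted 3′ end lies outside the deleted exons, so this level does not check the deletion. The libraries also differed in their other cells: 19 control and 89 mutant cells had at least 1% of their UMIs in neutrophil markers, and the summed level of these 6 markers was 267 and 2000 CPM. Retnlg, of this list, was at 0 in the control library. Class II markers (4 genes) summed to 28.7 and 116 CPM, and stromal markers (5 genes) to 6.13 and 11.6 CPM. The B cell, NK and T cell, and mast cell and basophil lists were each at 1.25 CPM or less in either library, with Cd3e and Fcer1a at 0 in both. Of the 6 macrophage markers, Csf1r, Adgre1, Cd68, Itgam and Mertk were higher and Lyz2 lower in the mutant library. Only 8 cell barcodes occurred in both libraries. In summed counts, fewer cells of a type and less RNA per cell cannot be told apart.

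All 10 members had a higher level in the mutant than in the control library, and 6 of them by at least 1.5-fold. These were the adaptors Tyrobp and Fcer1g and the 4 Fc gamma receptors. Trem2, Syk, Plcg2 and Btk differed by less. Among the 5219 genes that averaged 20 CPM or more, 12.6% were at least 1.5-fold higher, and 5.61% at least 1.5-fold lower, which held for 0 members. The median log2 ratio was 0.82 over the 10 members and 0.02 over those 5219 genes. Of the members, 9 reached a mean of 20 CPM, and Fcgr2b, at 17.8 CPM, did not. Of these 9, 5 were at least 1.5-fold higher.

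The adaptors had nearly equal ratios. Tyrobp, on chromosome 7 (30113170 to 30117010, plus strand, GRCm39), was at 1751 CPM (1745 to 1758) in control cells and 3116 CPM (3106 to 3125) in mutant cells. This is a log2 ratio of 0.83 (0.82 to 0.84). Fcer1g, on chromosome 1 (171057141 to 171062219, minus strand), was at 1807 CPM (1800 to 1813) and 3182 CPM (3173 to 3192), a log2 ratio of 0.82 (0.81 to 0.82). Most cells held several UMIs of each. With every cell thinned to 5000 UMIs, the median cell had 8 Tyrobp UMIs in control and 15 in mutant cells, and the same medians were seen for Fcer1g. The ratio of Tyrobp to Fcer1g UMIs was 0.969 (0.964 to 0.974) in the control library and 0.979 (0.975 to 0.983) in the mutant one.

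The receptor Trem2, which binds lipids and pairs with DAP12, lies on chromosome 17 (48653429 to 48661175, plus strand). It was at 413 CPM (410 to 416) in control cells and 602 CPM (598 to 606) in mutant cells, with a log2 ratio of 0.54 (0.53 to 0.56). A Trem2 UMI was seen in 77.2% of control and 86.6% of mutant cells at 5000 UMIs. In neutrophil-gate cells, which should lack the gene, it was seen in 17.6% of 17 control and 17.3% of 75 mutant cells at the same thinned depth, so that the shares over all cells lay far above this background. Before thinning, the median depth was 24266 and 22412 UMIs over all such cells and 8616 and 10828 UMIs in neutrophil-gate cells.

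The enzymes downstream of the motif differed less between the libraries. Syk, on chromosome 13, was at 61.5 CPM (60.3 to 62.7) in control cells and 91.3 CPM (89.6 to 92.9) in mutant cells, with a log2 ratio of 0.57 (0.53 to 0.61). This lies just under the 1.5-fold line. Plcg2, on chromosome 8, was at 38.9 and 53.2 CPM, with a log2 ratio of 0.45 (0.40 to 0.50). Btk, on chromosome X, had the smallest difference of the members, with 51.9 and 61.8 CPM and a log2 ratio of 0.25 (0.21 to 0.29).

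The Fc gamma receptors had the 4 highest log2 ratios of the members. Fcgr1 encodes the high-affinity IgG receptor and lies on chromosome 3 (96190225 to 96201338, minus strand). It was at 26.8 CPM (26.0 to 27.6) in control cells and 135 CPM (133 to 137) in mutant cells, which is 5.04-fold higher (log2 ratio 2.33, from 2.28 to 2.38). Fcgr2b, the inhibitory receptor, was at 9.14 CPM (8.68 to 9.61) and 26.5 CPM (25.7 to 27.4), with a log2 ratio of 1.54 (1.45 to 1.63). Fcgr3 was at 63.4 CPM (62.2 to 64.6) and 180 CPM (177 to 182), with a log2 ratio of 1.503 (1.47 to 1.54). Fcgr4 was at 18.5 CPM (17.9 to 19.2) and 45.0 CPM (43.8 to 46.1), with a log2 ratio of 1.28 (1.22 to 1.34). The intervals of the libraries did not overlap for any of the 4 genes. The same was true of every other member, down to Btk (50.8 to 53.1 and 60.4 to 63.1 CPM). These intervals hold counting error only and at this depth set small differences apart as well. The 4 log2 ratios were all above the 95th percentile of the 5219 genes, which was 1.07. Fcgr2b, with a mean under 20 CPM, is not among these genes. Fcgr4 reached that mean only through its mutant level.

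**Figure D1:**
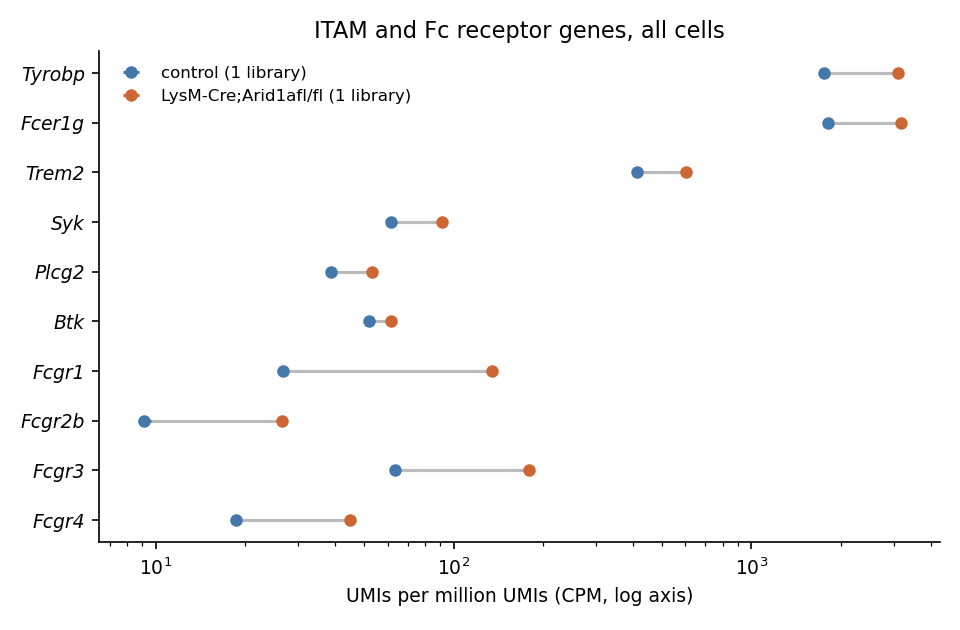
Level of each member in all cells, with CPM on a logarithmic horizontal axis and 1 point per library. Bars are 95% Poisson intervals and are narrower than most points. The mutant point lies to the right for all 10 members, and the longest gap is that of Fcgr1, from 26.8 to 135 CPM.

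The higher Fc gamma receptor levels were also seen as larger shares of cells with a UMI at 5000 UMIs. For Fcgr1 these shares were 11.01% in control and 40.7% in mutant cells, for Fcgr3 23.8% and 52.0%, for Fcgr4 7.97% and 17.1%, and for Fcgr2b 4.49% and 11.7%. For Fcgr1, the neutrophil-gate cells gave a background of 5.88% (0.149 to 28.7%) in the control library and 12% (5.64 to 21.6%) in the mutant one. The control background rests on 17 cells, and its interval is too wide to place the control share of 11.01%. The mutant share lies above the mutant background. On unthinned counts the Fcgr1 shares were 29.6% and 73.2%. Neutrophils themselves express Fcgr2b, Fcgr3 and Fcgr4, so they give no background for these genes.

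Neutrophil-gate cells of the mutant library held between 0.278% and 1.43% of the library's UMIs of each member, the highest share being that of Fcgr2b. Leaving out neutrophil-, class II- and stromal-gate cells kept the number of members past the fold at 6. Over the scalings of the totals and cell filters tried, the log2 ratio of Fcgr1 ranged from 2.22 to 2.36, that of Fcgr2b from 1.43 to 1.55, that of Fcgr3 from 1.39 to 1.52 and that of Fcgr4 from 1.17 to 1.34. That of Syk ranged from 0.46 to 0.64 and crossed the 1.5-fold line, which is at 0.58.

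Fcgr2b, Fcgr4 and Fcgr3 are adjacent on chromosome 1, within 170786186 to 170893549. The next gene past them with at least 20 CPM, Sdhc, a subunit of succinate dehydrogenase, had a log2 ratio of 0.09. Beside Tyrobp, the gene for another short adaptor, Hcst (DAP10), which carries no ITAM, had 0.68 and the NF-kB regulator Nfkbid 0.57, while Sdhaf1 had -0.58. In the Trem cluster, B430306N03Rik had 1.48, and beyond the cluster Nfya had 0.46 and Oard1 0.18. Transcripts of Fcgr2b and Fcgr3 share stretches of identical sequence: 6.67% of the 31-base runs of the Fcgr2b transcript and 12.02% of those of the Fcgr3 transcript. No such run was shared in the last 500 bases, from which 3′ counts are mainly read, and none by any other pair of the 4 receptors. Of the annotated genes that overlap a member, Gm38204, opposite Fcgr2b, was counted with 0 UMIs in each library, and the others are not analysed here.

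To place the members along OC differentiation, each cell was thinned to 5000 UMIs and its UMIs over Ctsk, Mmp9 and Dcstamp were summed. Ctsk encodes the bone-degrading protease cathepsin K, Mmp9 a matrix metalloprotease and Dcstamp a protein of cell fusion. Cells with 0 UMIs were called none, with 1 to 2 low and with 3 or more high. In the control library 4775 cells were none, 946 low and 380 high (6.23%, from 5.63 to 6.86%). In the mutant library 4933 cells were none, 322 low and 57 high (1.07%, from 0.814 to 1.39%). The members played no part in forming these states. The mutant levels of the high state rest on these 57 cells, whose spread from cell to cell the intervals do not cover.

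Within the control library, 6 of 10 members were at least 1.5-fold lower in high than in none cells, where 8.67% of genes were. These were the 4 Fc gamma receptors, Trem2 and Fcer1g. Of the 7 members that averaged 20 CPM or more over both states, 3 were lower. Of these 3, Fcgr3 reached that mean only through its level in none cells. With states set from unthinned UMIs the count was 4, where 5.3% of genes were. Fcgr4 (-0.45) and Fcer1g (-0.49) were then short of the fold, and the log2 ratio of Fcgr1 was -1.24. With states from thinned UMIs, Fcgr1 went from 30.4 CPM in none to 18.2 in low and 6.78 in high cells, a log2 ratio of high over none of -2.16 (-2.50 to -1.84). Fcgr2b went from 9.85 to 8.50 and 2.49 CPM (-1.98, from -2.57 to -1.45). Fcgr3 went from 70.5 to 48.4 and 19.7 CPM (-1.84, from -2.04 to -1.65). The fall was stepwise for all 3 receptors. Fcgr4, with 19.8, 17.1 and 7.98 CPM, had a log2 ratio of -1.31 (-1.63 to -1.01).

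Trem2 was likewise lower along the states of the control library, with 451, 345 and 163 CPM in none, low and high cells (-1.47, from -1.54 to -1.40). The adaptors diverged from each other. Fcer1g went from 1922 to 1578 and 1077 CPM (-0.84, from -0.86 to -0.81), whereas Tyrobp went from 1810 to 1649 and 1351 CPM (-0.42, from -0.45 to -0.40). The ratio of Tyrobp to Fcer1g UMIs was 0.942 (0.936 to 0.947) in none, 1.04 (1.03 to 1.06) in low and 1.26 (1.23 to 1.29) in high cells of the control library. The downstream enzymes varied less. Plcg2 had a log2 ratio of -0.36 (-0.51 to -0.20) and Syk of 0.02 (-0.09 to 0.13). Btk was the only member with a higher level in high than in none control cells whose interval lay above 0, at 59.9 against 50.6 CPM (0.24, from 0.13 to 0.36).

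In the mutant library, 4 of 10 members were at least 1.5-fold lower in high than in none cells (8.42% of genes were). These were Fcgr1 (137, 117 and 48.8 CPM in none, low and high cells), Fcgr3 (181, 187 and 71.7 CPM), Trem2 (609, 558 and 329 CPM) and Plcg2 (53.7, 48.5 and 25.9 CPM). Their log2 ratios of high over none were -1.49 (-1.83 to -1.17), -1.33 (-1.61 to -1.07), -0.89 (-1.02 to -0.77) and -1.05 (-1.52 to -0.61). For Fcgr2b, with 27.1, 21.0 and 19.8 CPM, the ratio was -0.45 (-1.004 to 0.05), and for Fcgr4, with 43.8, 62.4 and 34.0 CPM, it was -0.37 (-0.78 to 0.02). Both intervals reach 0. Tyrobp had -0.50 (-0.55 to -0.45) and Fcer1g -0.58 (-0.63 to -0.53), and their ratio was 0.976 in none, 1.01 in low and 1.03 in high cells. The mutant count depends on how high cells are set: it was 0 with unthinned UMIs (1.85% of genes were lower), 1 with Acp5 added to the 3 genes (2.75%) and 7 with at least 5 UMIs required (11.8%). The sign of the Fcgr4 ratio also depends on it, at 0.46 with unthinned UMIs and 0.54 with Acp5 added.

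**Figure D2:**
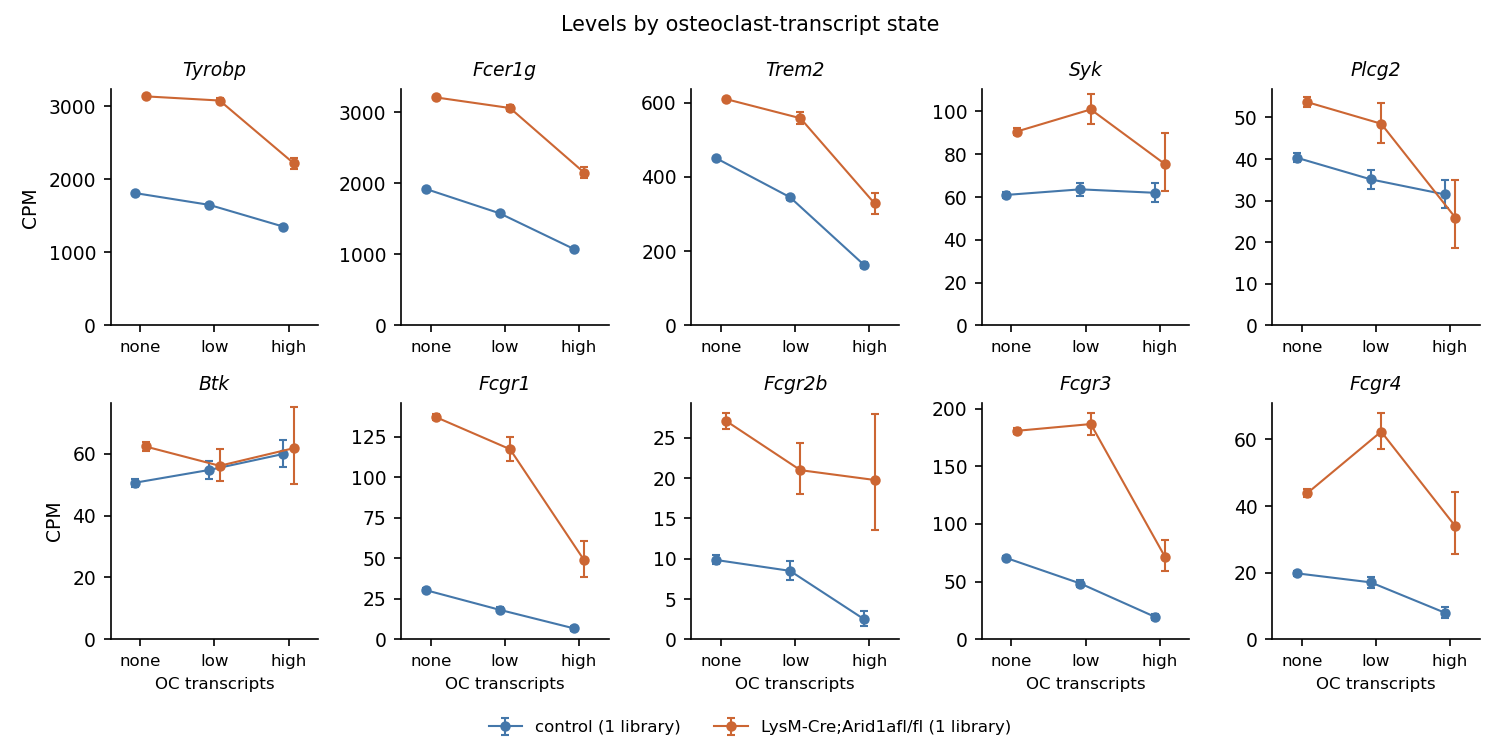
Levels in CPM by osteoclast-transcript state for each member, with bars for 95% Poisson intervals and 1 library per colour. The control lines of the 4 Fc gamma receptors and Trem2 descend from none to high, the control lines of Syk and Btk are nearly level, and the mutant points lie above the control points except for Plcg2 in high cells, with overlapping bars for Btk in low and high cells and for Syk in high cells.

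Compared at the same state, the mutant library was still higher for most members. In none cells 6 of 10 members were at least 1.5-fold higher (11.8% of genes were), in low cells 8 (14.2%) and in high cells 7 (13.1%). Of the 9 members that averaged 20 CPM or more in each comparison, 5, 7 and 6 were past the fold. Some of these reached that mean only through their mutant levels. They were Fcgr4 in none cells, Fcgr1 and Fcgr4 in low cells, and Fcgr1, Fcgr3 and Fcgr4 in high cells. At 2-fold, 4 of 10 members were higher in low cells (6.89% of genes). For each of the 4 Fc gamma receptors the interval of the log2 ratio in high cells, as set here, lay above that in none cells, where the ratios were 2.17 (2.12 to 2.22) for Fcgr1, 1.46 (1.36 to 1.55) for Fcgr2b, 1.36 (1.32 to 1.39) for Fcgr3 and 1.14 (1.08 to 1.21) for Fcgr4. The share of all genes for which this held was not counted. The intervals also leave out the spread between the few mutant high cells. In high cells Fcgr2b was at 2.49 CPM (1.67 to 3.58, from 29 UMIs) for the control and 19.8 CPM (13.5 to 27.9, from 32 UMIs) for the mutant library, a log2 ratio of 2.99 (2.22 to 3.77). Fcgr1 was at 6.78 and 48.8 CPM (2.85, from 2.38 to 3.32), Fcgr4 at 7.98 and 34.0 CPM (2.09, from 1.58 to 2.59) and Fcgr3 at 19.7 and 71.7 CPM (1.87, from 1.53 to 2.19). With at least 5 UMIs required, the intervals of Fcgr1 (2.28, from 1.29 to 3.23) and Fcgr4 (1.45, from 0.38 to 2.43) no longer lay above those in none cells. With cells thinned to 2000 UMIs, Fcgr1 was at 2.20 (1.19 to 3.16) in high and 2.23 in none cells. The wider gap of Fcgr1 and Fcgr4 in high cells thus depends on how the state is set. Control levels of the 4 receptors in high cells were thus all under their control level in none cells, while the mutant level in high cells lay above the control level in none cells for Fcgr1, Fcgr2b and Fcgr4 and was close to it for Fcgr3. With at least 5 UMIs required, the mutant level of Fcgr1 in high cells, 23.5 CPM, and that of Fcgr4, 17.6 CPM, lay under the control level in none cells.

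Trem2 was at 163 CPM in control and 329 CPM in mutant high cells (1.01, from 0.87 to 1.15), a wider gap than in none cells, where the log2 ratio was 0.43 (0.42 to 0.45). Fcer1g had 1.00 (0.94 to 1.05) in high cells and Tyrobp 0.71 (0.66 to 0.77). Of the enzymes, Syk had 0.28 (-0.01 to 0.56), Btk 0.04 (-0.27 to 0.35) and Plcg2 -0.28 (-0.78 to 0.18) in high cells, with intervals that reach 0. For Syk and Plcg2 this too depends on how high cells are set. Syk had 0.82 (0.35 to 1.26) with cells thinned to 2000 UMIs, 0.58 (0.47 to 0.70) with unthinned UMIs, where 264 mutant cells were high, and 0.60 (0.43 to 0.76) with Acp5 added. Plcg2 had 0.39 (0.22 to 0.57) with unthinned UMIs and 0.44 (0.20 to 0.69) with Acp5 added, which is the opposite sign.

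A cycling gate was set at 3 or more UMIs of Cdk1, Aurka, Mki67 and Top2a together in cells thinned to 5000 UMIs, and it held 39.1% of the control and 33.5% of the mutant cells. Outside the gate, 6 control and 6 mutant members were at least 1.5-fold lower in high than in none cells, where 9.43% of control and 10.3% of mutant genes were. In the control library Fcgr1, Fcgr3 and Fcgr4 were lower inside the gate than outside it, by log2 ratios of -0.57, -0.52 and -0.44. In the mutant library these were -0.04, -0.26 and -0.12. Fcgr2b went the other way and was higher inside the gate, by 0.16 (0.01 to 0.31) in the control library and by 0.68 (0.58 to 0.77) in the mutant one, with 21.8 CPM outside and 34.9 CPM inside it.

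The summed ratio of activating to inhibitory Fc gamma receptor transcripts over all cells was slightly higher in the mutant library, through Fcgr1 alone. Fcgr1 was 5.04-fold higher in the mutant library, against 2.90-fold for the inhibitory Fcgr2b. The folds of Fcgr3 (2.83) and Fcgr4 (2.43) were smaller than that of Fcgr2b. The ratio of Fcgr1, Fcgr3 and Fcgr4 UMIs to Fcgr2b UMIs was 11.9 (11.3 to 12.5) in the control library and 13.5 (13.1 to 14.0) in the mutant one, with intervals that did not overlap. It was 12.3 (11.6 to 13.0), 9.85 (8.58 to 11.4) and 13.8 (9.48 to 20.9) in none, low and high control cells, and 13.4 (12.9 to 13.8), 17.5 (15.0 to 20.4) and 7.81 (5.39 to 11.7) in the mutant ones. Single UMI counts per receptor are not corrected for capture efficiency, so only the comparison between groups of cells can be read from this ratio. The order of the libraries was opposite in low and high cells, and the intervals of the high state overlapped.

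Because several Fc receptor genes are known targets of interferon signalling, cells were also placed in bins by their UMIs over 10 interferon-stimulated genes (Isg15, Ifit1, Ifit2, Ifit3, Rsad2, Irf7, Oasl2, Ifi44, Usp18 and Cmpk2) at 5000 UMIs. The libraries filled the bins very differently. In the control library 3642 cells had 0 to 1, 1730 had 2 to 4, 490 had 5 to 9 and 239 had 10 or more such UMIs. In the mutant library these numbers were 92, 663, 1947 and 2610, of which 32, 19, 11 and 13 were neutrophil-gate cells. The lowest mutant bin is thus small and holds the largest share of such cells, against 15 in the lowest control bin. Within a bin the median was also higher in the mutant library in the lower 3 bins (0 and 1, 2 and 3, 6 and 7 UMIs), and it was 14 in each library in the highest.

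Fcgr1 and Fcgr4 varied most across these bins, as set from thinned UMIs over all cells. Their promoters above hold the GAS-type and the ISRE-type match, and whether the matches relate to these levels was not tested. In the control library Fcgr1 was at 16.5, 26.3, 58.1 and 129 CPM from the lowest to the highest bin, and the log2 ratio of highest over lowest was 2.96 (2.84 to 3.09). Fcgr4 was at 13.2, 20.5, 30.04 and 65.8 CPM (2.32, from 2.15 to 2.48). In the mutant library Fcgr1 was at 79.9, 88.8, 112 and 166 CPM (1.06, from 0.82 to 1.30) and Fcgr4 at 27.2, 31.3, 37.9 and 54.5 CPM (1.00, from 0.61 to 1.43). They were the 2 members at least 1.5-fold higher in the highest than in the lowest bin in each library, where 5.21% of control and 6.34% of mutant genes were. These shares are of genes that averaged 20 CPM or more over the 2 bins. In the control library both members reached that mean only through the highest bin. The mutant values depend on which cells fill the lowest bin. With bins set from unthinned UMIs scaled to 5000, that bin held 42 cells, 30 of them neutrophil-gate cells, and 11 Fcgr1 UMIs. Fcgr1 then had a log2 ratio of highest over lowest of 3.13 (2.29 to 4.14) in the mutant and 3.14 (3.01 to 3.27) in the control library, and Fcgr4 had 1.25 (0.48 to 2.17) and 2.48 (2.32 to 2.65). The number of members higher was then 5 in the mutant library, where 28.7% of genes were, and 2 in the control library (5.61%). Trem2 was among the 5, at 198 CPM in the lowest and 593 CPM in the highest mutant bin. With neutrophil-, class II- and stromal-gate cells left out, a choice made after seeing the data, the mutant ratio of Fcgr1 was 0.73 (0.50 to 0.98) with bins from thinned UMIs, and 3 members were higher (3.85% of genes). Plcg2 was among the 3, at 32.3 CPM in the lowest and 53.6 CPM in the highest mutant bin. With both changes the mutant ratio of Fcgr1 was 1.79 (0.91 to 2.85), from 12 cells in the lowest bin, and 4 members were higher (14.1% of genes).

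With bins from thinned UMIs, the library difference of these genes was smaller in each higher bin. For Fcgr1 the log2 ratio of mutant over control was 2.27 (2.02 to 2.52) at 0 to 1, 1.75 (1.64 to 1.87) at 2 to 4, 0.94 (0.83 to 1.06) at 5 to 9 and 0.37 (0.26 to 0.47) at 10 or more interferon-gene UMIs. For Fcgr4 it was 1.04 (0.61 to 1.44), 0.61 (0.46 to 0.77), 0.33 (0.17 to 0.50) and -0.27 (-0.42 to -0.12). In the highest bin the Fcgr4 level was thus lower in the mutant library, at 54.5 against 65.8 CPM. With bins from unthinned UMIs, the Fcgr1 ratio was 0.37 (-0.63 to 1.21), 1.53 (1.39 to 1.66), 0.66 (0.55 to 0.78) and 0.36 (0.26 to 0.47), so that the narrowing was seen over the upper 3 bins and not from the lowest to the highest. Without cells of other types these 4 values were 1.70 (0.64 to 2.59), 1.58, 0.67 and 0.36, and with bins from thinned UMIs and without such cells 2.59 (2.34 to 2.84), 1.78, 0.94 and 0.37.

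Fcgr3 and Fcgr2b did not follow this course, although both lie beside Fcgr4. Across the bins Fcgr3 ranged from 57.1 to 76.2 CPM in the control and from 150 to 187 CPM in the mutant library. The log2 ratio of mutant over control was 1.39, 1.34, 1.27 and 1.56 (1.41 to 1.72) from the lowest to the highest bin. For Fcgr2b, at 8.403 to 12.02 CPM in the control and 23.2 to 29.8 CPM in the mutant library, it was 1.83, 1.23, 1.10 and 1.66 (1.27 to 2.07). The adaptors behaved likewise, with 0.71, 0.68, 0.64 and 0.74 for Tyrobp and 0.61, 0.59, 0.57 and 0.61 for Fcer1g. Within a bin of interferon-gene UMIs, the levels (CPM) of Fcgr3, Fcgr2b, Tyrobp and Fcer1g were thus higher in the mutant library in all 4 bins. With bins from unthinned UMIs, the ratios in the lowest bin were 1.34 for Fcgr3, 2.00 for Fcgr2b, 0.28 for Tyrobp and 0.18 for Fcer1g. Without cells of other types they were 1.83, 0.82 (-1.46 to 2.37), 0.54 and 0.55.

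**Figure D3:**
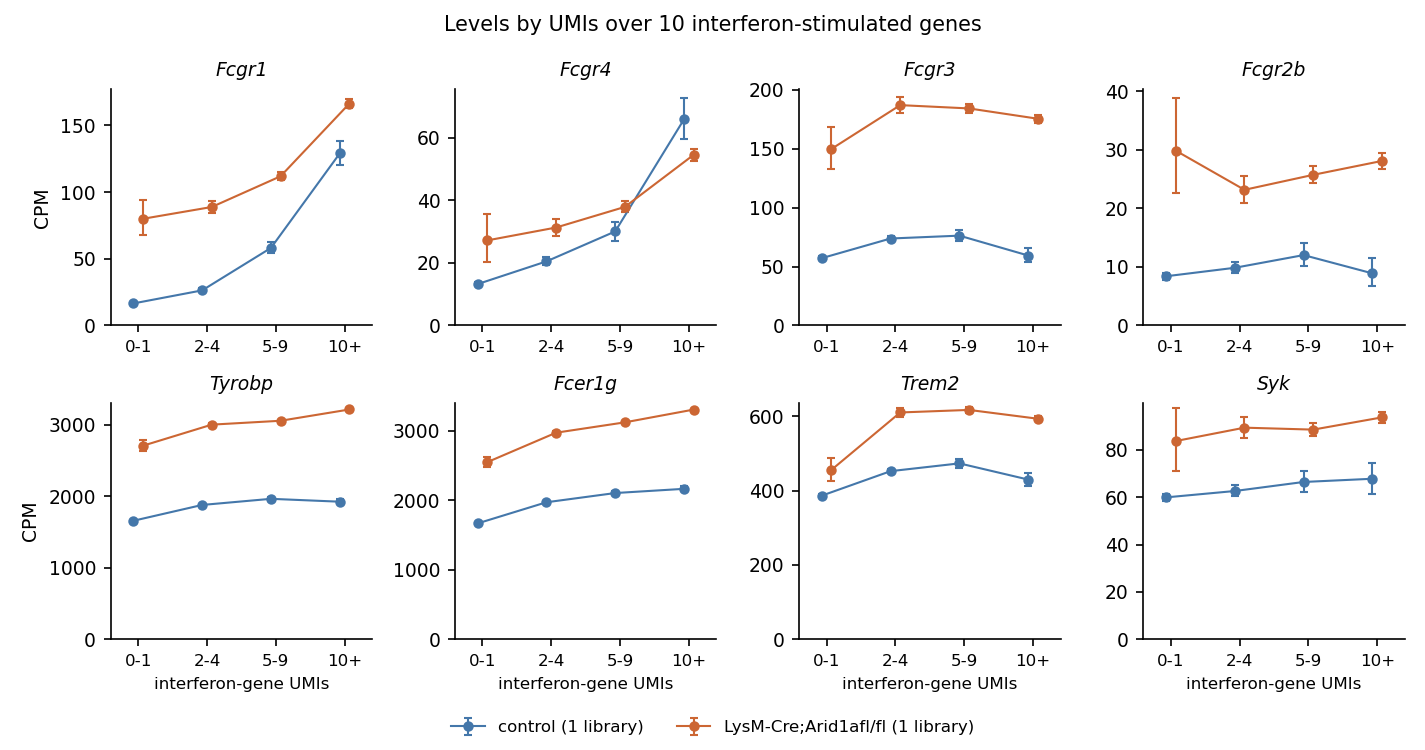
Levels in CPM of the 4 Fc gamma receptors, the adaptors, Trem2 and Syk by UMIs over 10 interferon-stimulated genes per cell at 5000 UMIs, with 95% Poisson intervals and 1 library per colour. With these bins, from thinned UMIs and all cells, Fcgr1 and Fcgr4 climb in each library and their lines approach or cross in the highest bin, while the Fcgr3, Fcgr2b, Tyrobp and Fcer1g lines stay apart.

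The wider pathway was described with 4 lists of other genes, for which the background is the 12.6% of genes at least 1.5-fold higher in all cells. Of the partner receptors, whose proteins pair with DAP12 or the FcR gamma chain, 8 of 23 reached 20 CPM, and 6 of these were higher and 0 lower by at least 1.5-fold, with a median log2 ratio of 0.83. The highest were Sirpb1c (13.7 and 110 CPM, log2 ratio 3.001) and Cd300ld (55.7 and 138 CPM, 1.30), and the lowest Cd300lb (0.48) and the C-type lectin Clec4d (0.03). Sirpb1c has near-identical paralogs, so its count is uncertain. The floor is a mean of both libraries, so a gene can pass it through 1 library alone. Of the genes counted as higher in these lists, Sirpb1c, Clec4a3, Vav3 and Pik3cg passed it only through their mutant levels. The background genes were taken with the same floor. Oscar, the collagen receptor of OCs that pairs with the FcR gamma chain, was counted with 15 UMIs in control and 0 in mutant cells, and the interval of the ratio, which covers the counting error of each library, allows at most 0.347 of the control level. Siglec15, a sialic acid receptor that pairs with DAP12, had 3 and 1 UMIs.

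Of 27 kinases and adaptors, 21 reached 20 CPM, of which 10 were higher and 0 lower by at least 1.5-fold, with a median of 0.43. At the top were Sh3bp2, an adaptor that binds Syk (29.1 and 70.2 CPM, 1.27), and the protein kinase C gene Prkcb (32.9 and 74.8 CPM, 1.18). The Syk substrates Blnk (-0.28) and Lat2 (-0.10) were lowest among the 21. With means under 20 CPM, the Src family kinase genes Src and Fgr went opposite ways. Src was lower, at 15.7 and 7.90 CPM (-0.99, from -1.10 to -0.89). Fgr was higher, at 7.87 and 31.6 CPM (2.01, from 1.92 to 2.10). Of 24 inhibitors, 19 reached 20 CPM, with 11 higher and 1 lower and a median of 0.64. The lectin receptor gene Clec4a3 (15.7 and 92.3 CPM, 2.56) and the ITIM receptor gene Sirpa (184 and 442 CPM, 1.26) were highest. The adaptor gene Dok2 (87.3 and 50.2 CPM, -0.80) and the phosphatase gene Ptpn22 (-0.52) were lowest. With mitochondrial and ribosomal protein genes left out of the totals, 7 inhibitors were past the fold.

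The calcium and NFAT arm, through which the signal reaches the nucleus, had the lowest median of the 4 lists, at 0.26. Of 21 genes 15 reached 20 CPM, with 3 higher and 1 lower, and 0 were higher without mitochondrial and ribosomal protein genes in the totals. The calcium channel gene Orai1 (62.4 and 97.9 CPM, 0.65) and its sensor Stim1 (0.63) were highest. Nfatc1 was the gene that was lower, at 51.6 and 29.9 CPM with a log2 ratio of -0.79 (-0.84 to -0.73), and the next lowest was the calmodulin gene Calm3 (-0.02). Over all cells, Nfatc1 was lower in the library in which all 10 members were higher. Its level was not compared within the osteoclast-transcript states, of which high held 6.23% of control and 1.07% of mutant cells.

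**Figure D4:**
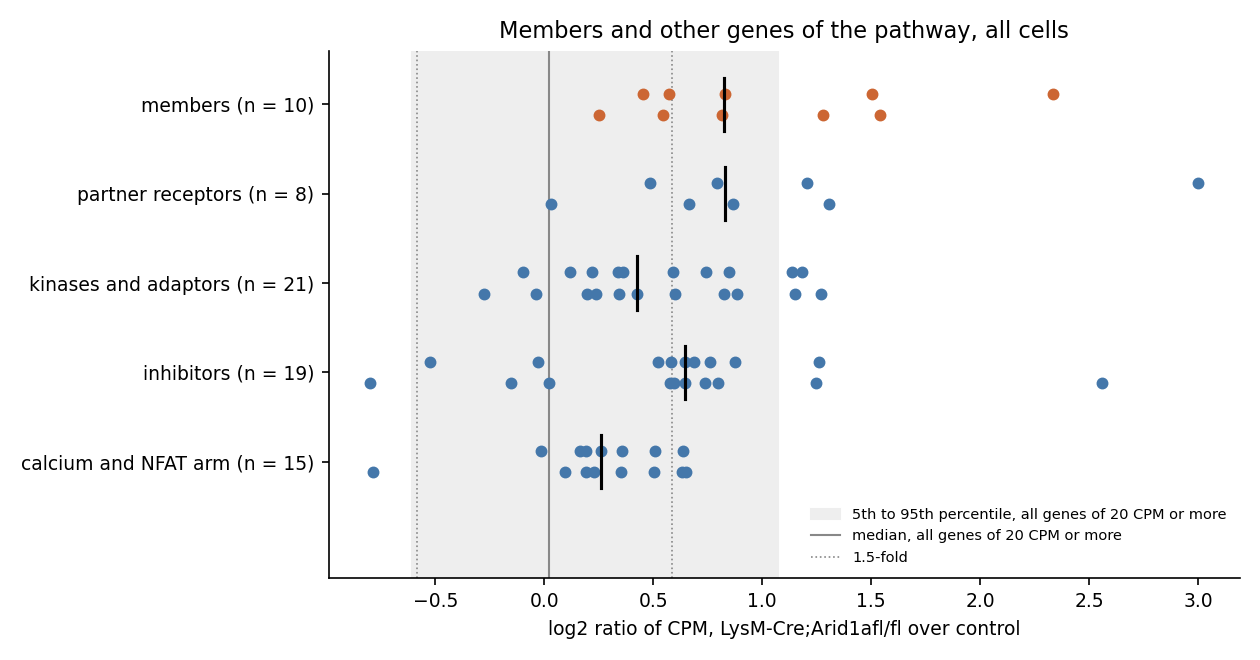
Log2 ratio of mutant over control for the 10 members and for the genes of each pathway list that averaged 20 CPM or more, 1 point per gene and a bar at the median. The grey band spans the 5th to 95th percentile of 5219 genes (-0.61 to 1.07). The 4 Fc gamma receptor genes lie to the right of the band, and Nfatc1 and Dok2 lie to its left.

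Profiles over 12 sums of cells (2 libraries, 3 states, inside or outside the cycling gate) were used to find, for each member, the gene with the smallest root mean square difference of centred log2 levels. For Fcgr1 this was Ms4a6c (0.171, against a root mean square of 1.52 for Fcgr1 itself), for Fcgr3 Xdh (0.140, against 1.12), for Fcgr4 Gm21188 (0.248, against 0.981) and for Fcgr2b Srgn (0.307, against 1.06). For Tyrobp it was Atox1 (0.0656), for Fcer1g Msmo1 (0.0788), for Trem2 Lrp1 (0.0905), for Syk Zfand3 (0.0927), for Plcg2 Hps3 (0.123) and for Btk Ppp3r1 (0.0606). The 12 sums come from 2 libraries, so the library difference weighs heavily in each profile.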

How the data were processed

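The authors deposited unnormalized UMI counts for a 10x Genomics 3′ library of each genotype, and the file headers name Cell Ranger 6.1.0. GRCm39 is named in the submitters' processing notes. Whether counting used the strand, and whether doublets were removed before deposit, is not given in the sources used here. Of 32544 gene identifiers, 31977 matched GENCODE M39, which gave coordinates.

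Cells were filtered at 500 genes and 10% mitochondrial UMIs, which left out 186 control and 202 mutant barcodes. Kept cells held 163618835 and 131469887 UMIs. Thinning to 5000 UMIs left out 168 control and 351 mutant cells. Doublets, scored against simulated doublets, were kept, and removing the 333 control and 275 mutant barcodes marked (5.16% and 4.69%) was an alternative. Levels have exact Poisson intervals, log2 ratios exact conditional Poisson intervals and shares Clopper-Pearson intervals, computed with scipy 1.17.1. They cover counting error only. With 1 library per genotype, differences were called by a fold of 1.5 among genes that averaged 20 CPM or more, or at any level for members, and no p-values were computed. The comparison script was run on simulated Poisson counts with known folds. These hold no spread between cells or libraries, so the run checks the calculation only.

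The members, pathway lists and tests were chosen with earlier results of these data known. The text names all members, the 2 highest and 2 lowest log2 ratios of each pathway list, Oscar, Siglec15 and Nfatc1, the neighbours that averaged 20 CPM or more of members in gene clusters and, for each member, the gene with the closest profile. Src, Fgr, Vav3 and Pik3cg are named besides, for where they lie against the 20 CPM floor. Clec7a and Lilrb4b were not analysed here. Alternatives were other totals, TMM and median of ratios scalings, equal weight per cell, other cell filters, thinning depths and state limits, and a fold of 2.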

Additional observations from a re-analysis of the deposited data

Results flagged for a closer look

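A pair of members moved in opposite directions between none and low cells of the libraries. The differences between the libraries were not tested, since each genotype has a single library. For Fcgr4 the log2 ratio of low over none cells was -0.21 (-0.36 to -0.07) for the control library and 0.51 (0.38 to 0.64) for the mutant one, and for Btk it was 0.11 (0.03 to 0.20) and -0.15 (-0.29 to -0.02). Marked doublets made up 5.36% of none and 5.92% of low control cells, and 4.93% and 8.70% of the mutant ones, and the median number of interferon-gene UMIs was 1 and 1 in control and 9 and 11 in mutant cells. The part of these values in the result was not tested.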

How the results depend on the processing

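Among alternatives for the main counts and ratios, 65 values stayed within 1.5 times the main count, or, for ratios, within its interval, and 9 did not. The other values are those of single members and the medians of the pathway lists. Of these, 154 stayed within the interval of the value as reported or, for medians, a set band around it. Of the rest, 118 did not and 2 reversed against an interval without 0. The number of members lower in high than in none mutant cells, 4, became 0 with unthinned UMIs, 1 with Acp5 added and 7 with at least 5 UMIs required. The number of members higher in low cells of the mutant library, 8, became 4 at 2-fold, and the number higher in the highest mutant interferon bin, 2, became 5 with bins from unthinned UMIs and 4 with such bins and without cells of other types, an alternative chosen after seeing the data. Without mitochondrial and ribosomal protein genes in the totals, 7 inhibitors and 0 genes of the calcium and NFAT arm were higher, and with no floor 15 partner receptors were. Of single members, Syk reversed between high and none mutant cells, from -0.26 to 0.083 with cells thinned to 2000 UMIs and to 0.076 with unthinned UMIs. Others changed sign from a value whose interval held 0: Fcgr4 between the same states, from -0.37 to 0.46 with unthinned UMIs and 0.54 with Acp5 added, and Plcg2 between the libraries in high cells, from -0.28 to 0.39 and 0.44. In all, 13 values of single members changed sign, the 2 of Syk included. The cause was not tested. Other scalings moved the median log2 ratio of all genes from 0.02 to between -0.08 and 0.04. No paired analysis was possible because each genotype has 1 library and no result comes from a test. Depth limits the mutant high state most, with 22 cells at a limit of 5 UMIs and 17 at 2000 UMIs per cell.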

Other observations

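Mutant cells were also split by a Ly6a UMI at 5000 UMIs, an interferon-responsive surface protein gene seen in 15.2% of control and 72.4% of mutant cells. The split separates interferon-gene levels little: the median was 8 interferon-gene UMIs in mutant cells without and 10 in those with a Ly6a UMI. In the 1464 mutant cells without one (27.6%), Fcgr3 was at 224 CPM against 163 CPM in those with one, a log2 ratio of 0.46 (0.42 to 0.50). Trem2 (0.22) and Syk (0.21) were also higher in cells without a Ly6a UMI, whereas Fcgr1 (-0.05) and Fcgr4 (-0.01) were nearly level and Fcgr2b had -0.16 (-0.27 to -0.05). Against all control cells, the mutant cells without a Ly6a UMI had log2 ratios of 2.29 for Fcgr1, 1.83 for Fcgr3, 1.43 for Fcgr2b, 1.27 for Fcgr4, 0.90 for Tyrobp and 0.85 for Fcer1g.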
